A study of Mus musculus with 11 samples.

Results

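The genes of the retinoid nuclear receptors, the 3 retinoic acid receptors Rara, Rarb and Rarg and the 3 retinoid X receptors Rxra, Rxrb and Rxrg, were followed across neural tissue of the mouse embryo. They were chosen by name, and all 6 were measured, of 18193 genes with a probe set of a single gene symbol. The receptors had 9 such probe sets. For each gene the probe set of highest mean over the 11 arrays led, and all 6 lead probe sets passed the filter on low values (a mean of at least 4.30 on the log2 scale), as did 13338 genes in all.

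Tissue came from wild-type C57BL/6 embryos of timed matings, dissected at embryonic day E8.5 or E9.5, with pooling within a litter allowed. Open neuroepithelium, the flat neural plate behind the point of closure, was measured on 3 arrays at each stage. Closed neural tube, in front of that point, was measured on 2 arrays at the earlier stage and 3 at the later. All groups were freed with pancreatin and trypsin on ice, for longer at E9.5, and all kept the adherent notochord. Closed tissue lay nearer the head than open tissue, so closure and axial level cannot be told apart. The arrays of a group were labelled as biological replicates, 1 further closed E8.5 array was removed by the authors for quality, and the number of arrays limits the precision.

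Retinoic acid is made from vitamin A and enters the nucleus, where it binds a RAR. Each RAR sits on DNA as a pair with an RXR, at repeated hexamers in the control regions of its target genes. Without ligand the pair holds corepressors, and with ligand it recruits coactivators. In the caudal embryo, retinoic acid made by somites acts on the neural tube, while the tail end, which expresses a retinoic acid-degrading enzyme, is kept low in it. Rarb is a textbook target of its own ligand.

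The promoter of Rarb is shown because it holds the textbook element of a retinoic acid response. It was read from RefSeq (GRCm38.p6), as the 250 bases before the start of the gene on the minus strand, chr14:16575477-16575726. Capitals mark 2 hexamers that point the same way with 5 bases between them, at positions -53 to -37 relative to the start. A second gene of the pathway with this spacing was Cyp26a1, which breaks retinoic acid down. Its element lay at -32 to -16 on the plus strand, within chr19:37697761-37697807, with the hexamers read from the opposite strand.
Rarb promoter: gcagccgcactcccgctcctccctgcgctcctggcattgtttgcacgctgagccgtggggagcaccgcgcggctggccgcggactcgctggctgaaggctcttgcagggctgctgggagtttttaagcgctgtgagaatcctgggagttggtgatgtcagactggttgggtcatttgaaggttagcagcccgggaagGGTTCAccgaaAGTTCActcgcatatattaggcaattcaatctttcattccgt
Rarb element with 15 bases on each side: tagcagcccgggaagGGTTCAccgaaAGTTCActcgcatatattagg
Cyp26a1 element with 15 bases on each side: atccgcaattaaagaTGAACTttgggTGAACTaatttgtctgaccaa

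The search used the consensus hexamer AGGTCA and 3 variants of it: the first was AGTTCA while the next was GGGTCA and the last was GGTTCA. They were taken in any combination, on both strands, in windows of 300 bases from 250 before to 50 after each start. Repeats with 5 bases between the hexamers were found in 32 of 32851 promoters (0.0974%). Repeats with 1 base between them were found in 0.222% and with 2 bases in 0.268%. Of 13 promoters listed for the 6 receptor genes, only that of Rarb matched any of these 3 spacings. At least 1 hexamer was present in 7 of the 13, against 43.7% of all promoters. A match is a run of letters in a window and was not measured as a bound site.

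Control probe sets at both ends of Gapdh and Actb gave a measure of RNA integrity, as 3-prime minus 5-prime signal (log2). It was 2.20 and 2.48 on open E9.5 replicates 1 and 2, the highest, and 1.14 to 1.82 on the other 9 arrays. Neural markers were present in every group: 7 of 7 had group means above the filter, and their mean lay between 8.35 and 8.59 in open and between 9.81 and 10.3 in closed arrays. The 5 presomitic mesoderm markers averaged 6.02 to 6.80 in open and 4.57 to 4.94 in closed arrays, with Ripply2 below the filter in every group. The 6 somite markers averaged 6.03 on closed E8.5 replicate 2, 4.79 on closed E8.5 replicate 1 and 4.43 to 4.67 on the other arrays. Foxc2 and Twist1, 2 of these markers, had group means above the filter in closed E8.5 tissue and below it in the other 3 groups. For both, the lower of the 2 closed E8.5 values lay below the filter (Foxc2 4.08 and 6.50, Twist1 4.15 and 5.90).

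Of the 6 receptor genes, 5 differed among the 4 groups. Rarb was higher in closed tissue and Rarg higher in open tissue at both stages, so that these receptors had opposite patterns. Rxrg was highest in open tissue at E8.5. Rxra and Rara had smaller differences in favour of closed tissue, and Rxrb did not pass any test of the main fit. Over all genes tested, 13.6% passed the F test of the 4 groups (limma, Benjamini-Hochberg adjusted p under 0.05), and the receptor genes that passed had adjusted p between 1.05e-06 (Rarb) and 0.0128 (Rara).

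At E8.5, 4 of the 6 receptor genes passed the comparison of closed with open tissue, against 7.17% of all genes tested. Of these, 2 were higher in closed tissue (3.79% of all genes were) and 2 were lower (3.38%). At E9.5, 3 of the 6 passed, against 8.54%, with 2 higher (2.75%) and 1 lower (5.79%). Over both stages together 4 passed, against 11.9%, with 3 higher (5.13%) and 1 lower (6.82%). Closed and open arrays did not overlap for all 6 genes at E8.5 and for 5 at E9.5, against 27.5% and 22.5% of all genes. The median difference of the 6 genes was 0.18 at E8.5 and 0.30 at E9.5, against 0.00 and -0.01 for all genes.

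Between the stages fewer receptor genes passed. In open tissue 1 of 6 did, against 5.02% of all genes, with a lower signal at E9.5 (1.42% of all genes were lower and 3.61% higher). In closed tissue 1 of 6 did, against 2.42%, again with a lower signal (1.46% lower and 0.96% higher). The stages did not overlap for 3 of 6 genes in each tissue, against 21.8% of all genes in open and 21.2% in closed tissue. The genes that passed were Rxrg in open and Rarb in closed tissue. Those without overlap were Rara, Rxra and Rxrg in open and Rara, Rarb and Rxrg in closed tissue.

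**Figure D1:**
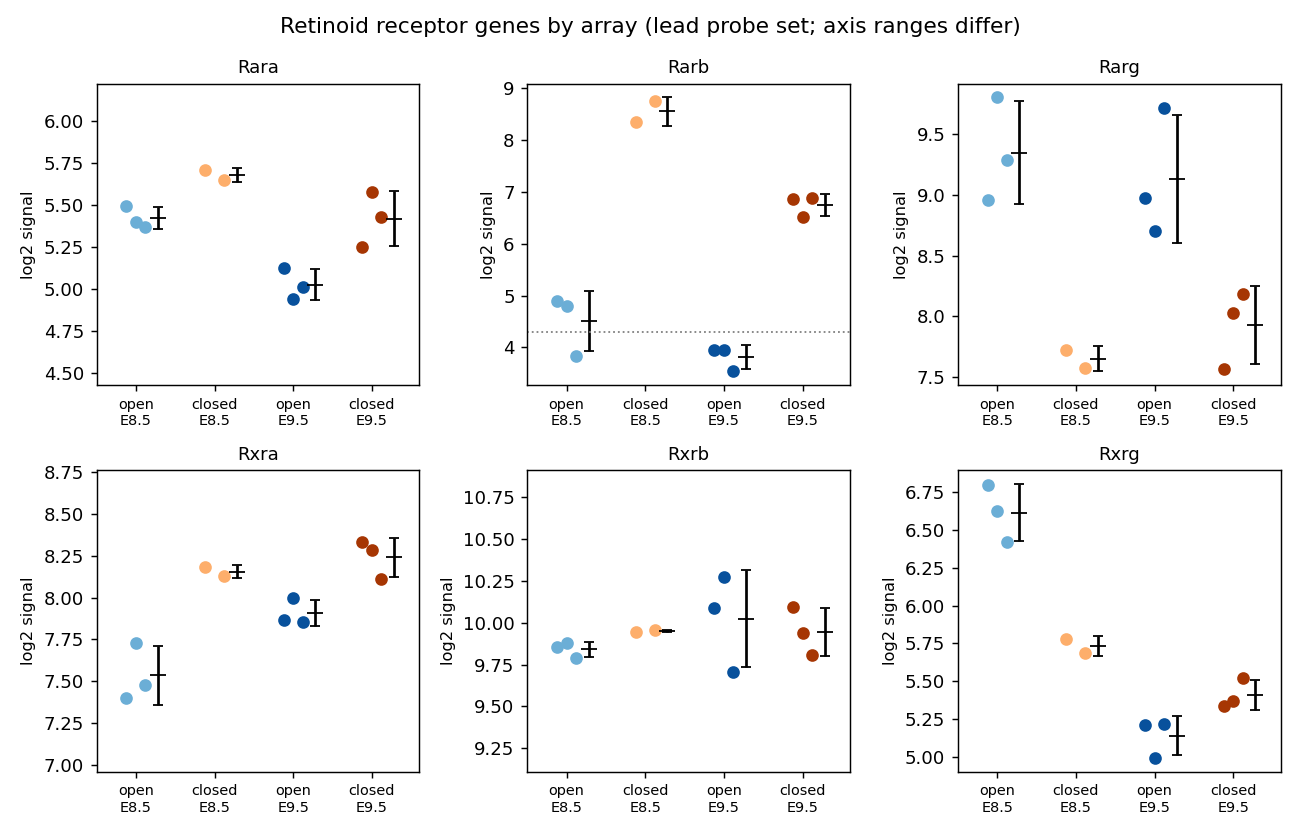
Log2 signal (vertical axis, its range differing between panels) of the lead probe set of each receptor gene on the 11 arrays, by group, with the mean and SD in black beside the points; the dotted line in the Rarb panel is the filter of 4.30. Rarb is at 6.51 or above on every closed array and at 4.89 or below on every open array, and Rarg is at 8.70 or above on every open array and at 8.19 or below on every closed array.

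Rarb, the receptor gene with the element shown above, was 8.36 and 8.75 (log2 signal) on the closed E8.5 arrays and 4.89, 4.81 and 3.84 on the open E8.5 arrays. At E9.5 it was 6.87, 6.51 and 6.88 in closed and 3.95, 3.94 and 3.54 in open tissue. Every closed array lay above every open array of either stage. The difference was 4.04 at E8.5 (SE 0.28, 95% confidence interval 3.43 to 4.66, limma adjusted p = 2.93e-06), a 16.5-fold higher signal in closed tissue. It ranked 9 among the positive differences of all genes tested. At E9.5 it was 2.94 (SE 0.25, interval 2.39 to 3.49, adjusted p = 1.35e-05), a 7.69-fold higher signal. The mean of open tissue at E9.5 (3.81) lay below the filter, so the size of these folds depends on the background of the array. In these bulk samples fewer cells of a type and less RNA per cell cannot be told apart.

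Rarb fell in closed tissue between the stages, from a mean of 8.55 ± 0.27 (SD, n = 2) to 6.75 ± 0.21 (SD, n = 3). The change was -1.80 (SE 0.28, adjusted p = 0.0047), a 3.49-fold lower signal at E9.5, and its adjusted p was 0.0499 without closed E8.5 replicate 2. The order of the groups was closed E8.5, closed E9.5, open E8.5 and open E9.5, and the first 2 steps passed (7.36% of all genes passed between closed E9.5 and open E8.5 tissue, where Rarb differed by 2.24). The last pair did not pass: open tissue was 4.51 ± 0.58 (SD, n = 3) at E8.5 and 3.81 ± 0.23 (SD, n = 3) at E9.5, a difference of -0.71 (SE 0.25, adjusted p = 0.159). Without open E8.5 replicate 3, the array with the lowest value of its group, that difference was -1.04 (adjusted p = 0.0123). The region difference was smaller at E9.5 by 1.10 (interaction -1.10, SE 0.38), which did not pass (adjusted p = 0.308).

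Somite markers were raised on 1 array that also had the highest Rarb. Closed E8.5 replicate 2, with a somite marker mean of 6.03, had a Rarb value of 8.75, and replicate 1, with 4.79, had 8.36. Without replicate 2 the E8.5 difference of Rarb was 3.85 (adjusted p = 5.64e-05). On the closed E9.5 arrays the somite marker mean was 4.58 to 4.65, within the range of the open arrays, and Rarb was 6.51 to 6.88. The part of somite RNA in the Rarb differences was not tested.

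The means of other marker lists were also higher in closed tissue, like Rarb, Rxra and Rara. The 4 neural crest markers, all above the filter, averaged 6.10 and 6.92 on the closed E8.5 and 6.59 to 6.86 on the closed E9.5 arrays, against 5.14 to 5.49 and 5.35 to 5.79 on the open arrays, with no overlap. The means of the neural markers given above did not overlap either. Single members did: Sox3 of the neural list at both stages and Sox10 of the crest list at E8.5. Blood markers moved with the stage: the 5 averaged 6.25 and 6.43 on the closed E8.5 and 7.07 to 7.90 on the closed E9.5 arrays, with Gata1 below the filter in every group. The part of these lists in the receptor differences was not tested.

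Rarg, a receptor gene known for expression in the caudal embryo and tail bud, ran the other way. At E8.5 it was 8.96, 9.80 and 9.28 in open and 7.73 and 7.58 in closed tissue. At E9.5 it was 8.97, 8.70 and 9.72 in open and 7.57, 8.03 and 8.19 in closed tissue. Open and closed arrays did not overlap at either stage. Closed minus open was -1.69 at E8.5 (SE 0.31, interval -2.36 to -1.03, adjusted p = 0.0043) and -1.20 at E9.5 (SE 0.27, interval -1.80 to -0.60, adjusted p = 0.0168). These are signals 3.24-fold and 2.30-fold higher in open tissue. Without closed E9.5 replicate 1 the E9.5 difference was -1.02 (adjusted p = 0.0758).

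The stages did not separate for Rarg in either tissue. E9.5 minus E8.5 was -0.22 in open tissue (95% confidence interval -0.82 to 0.38) and 0.28 in closed tissue (interval -0.39 to 0.95). In the order open E8.5, open E9.5, closed E9.5 and closed E8.5, only the middle step from open to closed passed. Within open E9.5 tissue the arrays of high 3-prime control signal, replicates 1 and 2, had 8.97 and 8.70, against 9.72 on replicate 3. With both left out, replicate 3 was the 1 open E9.5 array that remained, and the E9.5 difference was -1.79. The mean of the presomitic mesoderm markers was also higher in open tissue (6.02 to 6.80 against 4.57 to 4.94). Tbx6, Hes7 and Dll3 were higher there. Msgn1 (4.65 in open against 4.60 in closed tissue at E8.5, 4.58 against 4.54 at E9.5) and Ripply2 were nearly level. The part of these markers in the Rarg difference was not tested.

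A second Rarg probe set, 1419416_a_at, gave smaller differences. Its values were 5.33 to 5.54 in open and 4.62 and 5.16 in closed tissue at E8.5, and 4.88 to 5.66 in open and 5.00 to 5.16 in closed tissue at E9.5. Its differences, -0.54 (SE 0.23) at E8.5 and -0.08 (SE 0.20) at E9.5, did not pass (adjusted p = 0.331 and 0.912, limma over 23203 probe sets). The E9.5 call for Rarg therefore rests on the lead probe set, 1419415_a_at. With the mean of both probe sets the E9.5 difference was -0.64 (adjusted p = 0.0933), while the E8.5 difference was still called (-1.12, adjusted p = 0.0128).

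**Figure D2:**
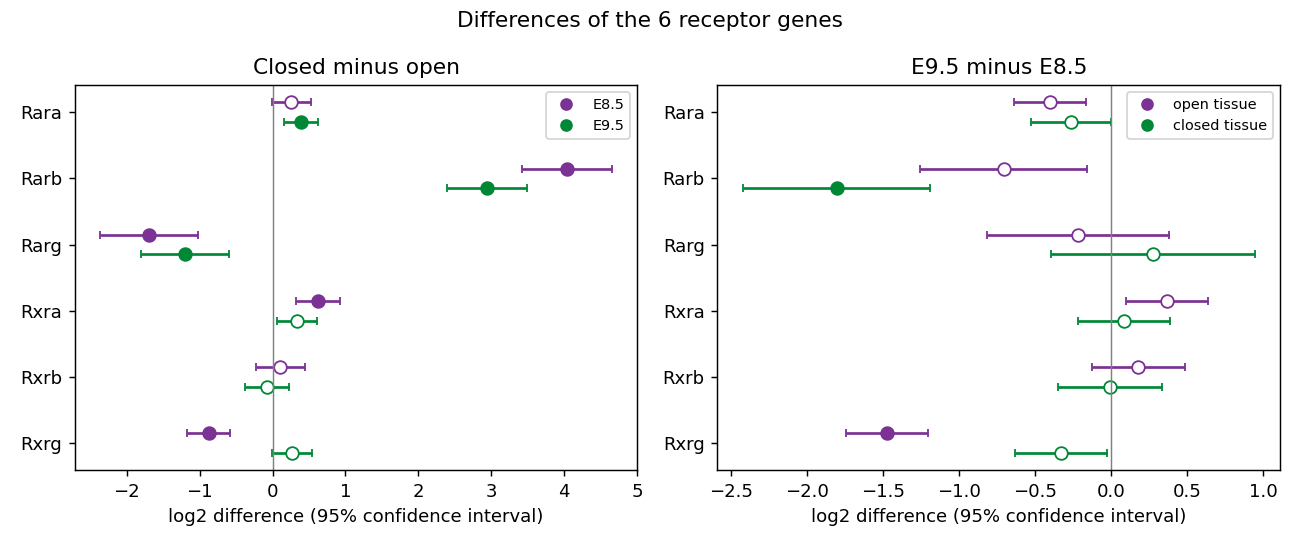
Log2 differences of the 6 receptor genes with 95% confidence intervals, closed minus open at each stage (left) and E9.5 minus E8.5 in each tissue (right); filled points have an adjusted p under 0.05. Rarb (4.04 and 2.94) and Rarg (-1.69 and -1.20) lie on opposite sides of 0 at both stages, and Rxrg (-1.47) is the filled point for the stages in open tissue.

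Rara, the most widely expressed RAR in many tissues, had small differences. It was 5.50, 5.40 and 5.37 in open and 5.71 and 5.65 in closed tissue at E8.5. At E9.5 it was 5.13, 4.94 and 5.01 in open and 5.25, 5.58 and 5.43 in closed tissue. Closed arrays were above open arrays at each stage, with no overlap. The difference was 0.39 at E9.5 (SE 0.11, adjusted p = 0.0451), a 1.31-fold higher signal, and 0.26 at E8.5 (SE 0.12, adjusted p = 0.362). Over both stages it was 0.33 (SE 0.08, adjusted p = 0.0204). The E9.5 call ended in 14 of 24 alternative analyses, with differences from 0.32 to 0.48 and adjusted p from 0.0142 to 0.252. It ended when any 1 of the open E8.5 or open E9.5 arrays, or closed E9.5 replicate 2 or 3, was left out (adjusted p 0.0629 to 0.175). It held without closed E9.5 replicate 1 (adjusted p = 0.0269).

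In time, Rara was lower at E9.5 than at E8.5 by values that did not pass: -0.40 in open (SE 0.11, adjusted p = 0.0616) and -0.26 in closed tissue (SE 0.12, adjusted p = 0.503). The order was closed E8.5, open E8.5, closed E9.5 and open E9.5. Of its neighbours, only the last pair differed past the threshold.

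Rxra encodes the retinoid X receptor most often described as the partner of RARs in the embryo. On its lead probe set, 1454773_at, it was 7.40, 7.73 and 7.47 in open and 8.18 and 8.13 in closed tissue at E8.5. At E9.5 it was 7.86, 7.99 and 7.86 in open and 8.33, 8.28 and 8.11 in closed tissue. Closed arrays were above open arrays at both stages. The difference was 0.62 at E8.5 (SE 0.14, adjusted p = 0.0158), a 1.54-fold higher signal. At E9.5 it was 0.34 (SE 0.12, interval 0.07 to 0.60, adjusted p = 0.137), and over both stages 0.48 (SE 0.09, adjusted p = 0.00404). With array weights the E9.5 difference passed (0.38, limma adjusted p = 0.0113).

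The E8.5 call for Rxra ended when open replicate 1 or 3, or closed replicate 1 or 2, was left out (differences 0.55 to 0.65, adjusted p 0.066 to 0.0944), and when only the groups compared were fitted (adjusted p = 0.0697). Its order was closed E9.5, closed E8.5, open E9.5 and open E8.5, and no neighbours differed past the threshold (between open E9.5 and closed E8.5 tissue 11.6% of all genes did). E9.5 minus E8.5 was 0.37 in open (SE 0.12, adjusted p = 0.126) and 0.09 in closed tissue (SE 0.14, adjusted p = 0.994).

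The other Rxra probe sets did not show the E8.5 difference. On 1425762_a_at closed minus open was 0.11 (SE 0.12, adjusted p = 0.935) at E8.5 and 0.20 (SE 0.11, adjusted p = 0.411) at E9.5. That probe set had the same value, 6.53, on open E8.5 replicates 1 and 2 and closed E9.5 replicate 2. The third, 1430497_at, lay below the filter, between 3.71 and 4.31, with 1 value shared by 5 arrays. With the mean of all 3 probe sets the E8.5 difference was 0.16 (adjusted p = 0.494) and that over both stages 0.18 (adjusted p = 0.0824). Such repeated values were found in 44.6% of all probe sets and in 29.2% of the lead probe sets tested. All 6 receptor lead probe sets had 11 distinct values.

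**Figure D3:**
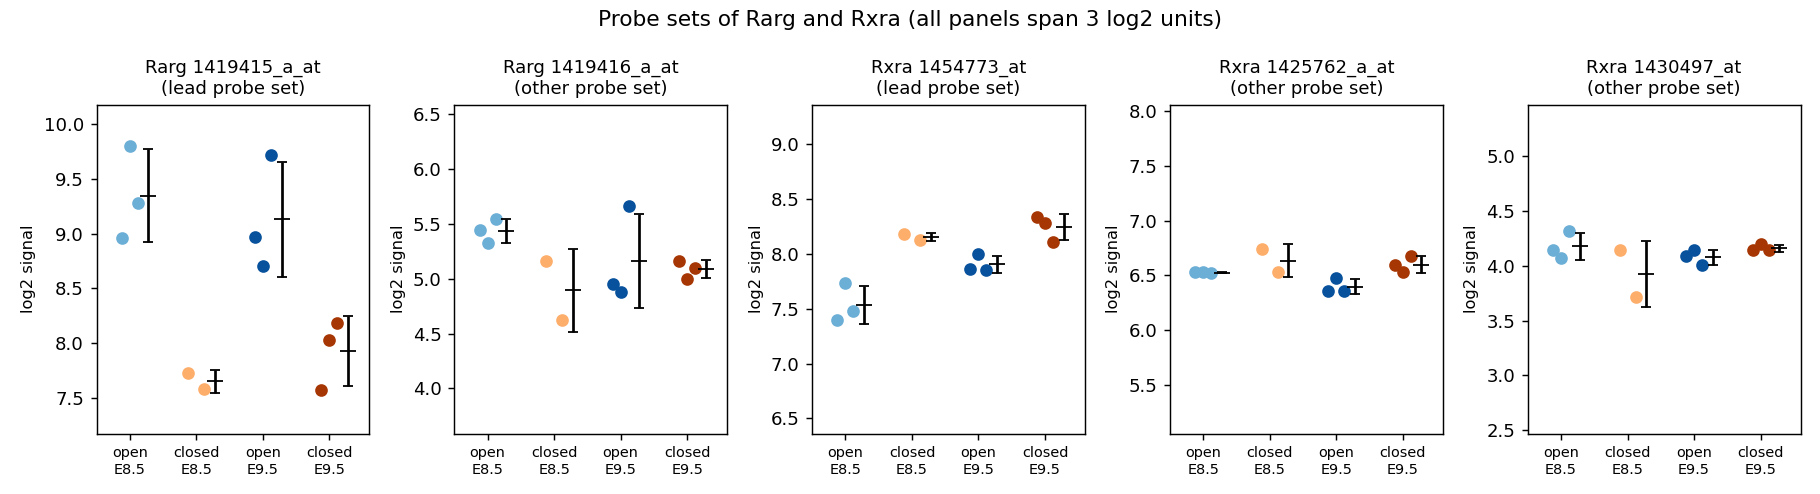
Log2 signal of the 2 Rarg and 3 Rxra probe sets on the 11 arrays, each panel spanning 3 log2 units, with the mean and SD in black. The lead probe sets 1419415_a_at and 1454773_at separate open from closed tissue at both stages, for 1454773_at by a narrow margin at E9.5 (7.99 against 8.11). Probe set 1419416_a_at overlaps at E9.5, and 1425762_a_at separates narrowly (6.48 against 6.53 at E9.5).

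Rxrb, a broadly expressed RXR, was nearly level. It was 9.85, 9.88 and 9.79 in open and 9.95 and 9.95 in closed tissue at E8.5, and 10.09, 10.28 and 9.71 in open and 10.09, 9.94 and 9.81 in closed tissue at E9.5. The groups overlapped at E9.5, and at E8.5 they stood apart narrowly, the highest open array at 9.88 and both closed arrays at 9.95. Closed minus open was 0.11 at E8.5 (95% confidence interval -0.23 to 0.45) and -0.08 at E9.5 (interval -0.38 to 0.22). E9.5 minus E8.5 was 0.18 in open (interval -0.12 to 0.49) and -0.01 in closed tissue (interval -0.35 to 0.33). None of these 4 intervals reached beyond 0.49 in either direction. The highest value, 10.28, was that of open E9.5 replicate 2, followed by closed E9.5 replicate 1 and open E9.5 replicate 1, both at 10.09. Open E9.5 replicates 1 and 2 were the arrays of high 3-prime control signal. Without them 1 open E9.5 array remained, and the E9.5 difference was 0.24.

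Rxrg, which in the embryo is known from muscle and parts of the nervous system, was the receptor gene that passed between the stages in open tissue. It was there 6.80, 6.62 and 6.42 on the E8.5 arrays, against 5.21, 4.99 and 5.22 at E9.5. In closed tissue it was 5.78 and 5.69 at E8.5, against 5.34, 5.37 and 5.52 at E9.5. The open E8.5 arrays lay above all others. In open tissue it fell by 1.47 (SE 0.12, 95% confidence interval -1.74 to -1.20, adjusted p = 5.00e-05), a 2.78-fold lower signal at E9.5. In closed tissue the difference was -0.33 (SE 0.14, adjusted p = 0.412).

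Between the regions, Rxrg was lower in closed tissue at E8.5 (-0.88, SE 0.14, adjusted p = 0.00165), a 1.84-fold higher signal in open tissue. At E9.5 closed arrays were above open arrays by 0.27 (SE 0.12, adjusted p = 0.262), which did not pass. The region difference changed between the stages by 1.15 (interaction, SE 0.18, interval 0.74 to 1.55, adjusted p = 0.0102). Rxrg was the 1 receptor gene of 6 whose change passed, against 1.25% of all genes (0.3% in this direction). That of Rarb was of similar size and opposite sign (-1.10, interval -1.92 to -0.27) and did not pass (limma adjusted p = 0.308). Over both stages the difference was -0.31 (SE 0.09, adjusted p = 0.0538), and with replicate numbers within a stage as blocks it passed (-0.35, adjusted p = 0.0162). In the order open E8.5, closed E8.5, closed E9.5 and open E9.5, only the first pair differed past the threshold.

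The means of some marker lists also moved, though not all of their members did. The 5 surface ectoderm markers averaged 7.37 to 7.50 on the open E8.5 arrays, 7.05 and 7.18 on closed E8.5, 6.76 to 7.01 on open E9.5 and 6.87 to 7.05 on closed E9.5 arrays. All 5 had group means above the filter in each group except open E9.5, where 4 did. Krt8 and Krt18 were highest in open E8.5 tissue, and Epcam in open E9.5 tissue. Tfap2c was higher in closed than in open tissue (9.17 against 7.75 at E8.5), and Trp63 was nearly level. The 4 endoderm markers averaged 5.78 to 5.91 on the open E8.5 arrays and 5.04 to 5.66 on the others. Their mean followed Cldn6, with 8.03 in open E8.5, 5.85 in closed E8.5, 6.80 in open E9.5 and 5.94 in closed E9.5 tissue. Sox17, Ttr and Apoa1 varied little. The mean of the blood markers rose in open tissue, from 4.99 to 6.28 at E8.5 to between 7.80 and 8.03 at E9.5. The globin gene Hbb-y went from a mean of 6.96 to 12.1. The part of these lists in the Rxrg differences was not tested. Leaving out both open E9.5 arrays of high 3-prime control signal left 1 open E9.5 array. The interaction was then 1.07 and no longer called, and the change in open tissue was -1.40. With 1 array, RNA quality and that array cannot be told apart.

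Some genes that make, carry or break down the ligand also differed between the tissues, while most of the list did not pass. Of 17 tested genes of retinoic acid synthesis, binding and breakdown, 4 had a higher and 1 a lower signal in closed tissue at E8.5, and 2 a higher and 1 a lower signal at E9.5, against 7.17% and 8.54% of all genes in either direction. The other 12 and 14 did not pass. The list had medians of 0.04 and 0.18, against 0.00 and -0.01 for all genes. Aldh1a2, the gene of the main retinoic acid-synthesising enzyme of the trunk, stood 3.50 above open tissue in closed tissue at E8.5 (SE 0.13, adjusted p = 6.34e-08) and 2.87 at E9.5 (SE 0.11, adjusted p = 7.04e-08). Crabp2, which carries retinoic acid to the receptors, was higher by 0.91 (SE 0.08) and 0.57 (SE 0.07). Cyp26a1, which shares the 5-base spacing with Rarb, was lower in closed tissue by a signed difference of -4.11 (SE 0.27) at E8.5 and -5.28 (SE 0.24) at E9.5. Between the stages in closed tissue, 1 of the 17 rose and 3 fell (2.42% of all genes passed in either direction), among them Aldh1a2 (-1.14, SE 0.13, adjusted p = 0.000399) and the retinal reductase gene Dhrs3 (-0.74, SE 0.16, adjusted p = 0.0315). Aldh1a2 is a somite gene too, and the somite markers of closed E8.5 replicate 2 given above apply to it.

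Some genes known to respond to retinoic acid were, like Rarb, higher in closed tissue. Of 13 tested, 8 passed at E8.5 and 8 at E9.5, each with the higher signal in closed tissue. Of all genes, 3.79% and 2.75% passed in this direction. At each stage 5 of the list did not pass. The list was chosen with earlier results of these data known, and Pax6 was also among the neural markers. The medians were 1.56 and 2.22, against 0.00 and -0.01 for all genes. Nr2f1, an orphan nuclear receptor gene, was higher by 5.40 (SE 0.20) and 4.82 (SE 0.18). Pax6, a transcription factor of the neural tube, was higher by 3.83 (SE 0.18) and 3.13 (SE 0.16). In closed tissue 2 of the 13 fell between the stages, against 1.46% of all genes. They were the homeobox gene Cdx1 (-2.80, SE 0.50, adjusted p = 0.0112) and Pax6 (-1.27, SE 0.18, adjusted p = 0.00257). In open tissue 2 fell as well, against 1.42% of all genes: Cdx1 (-2.95, SE 0.44, adjusted p = 0.00242) and the proneural gene Neurog2 (-0.98, SE 0.16, adjusted p = 0.00319).

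Among genes of proteins that work with the receptors, 0 or 1 a list passed in each comparison of regions, where 7.17% of all genes passed at E8.5 and 8.54% at E9.5. Such counts do not set these lists apart. Of 6 tested corepressors, 1 was higher in closed tissue at each stage: Nrip1, which binds liganded receptors and represses, by 0.91 at E8.5 (SE 0.19, adjusted p = 0.0104) and 0.75 at E9.5 (SE 0.17, adjusted p = 0.0153). Of 12 coactivators, 0 passed between the regions at either stage in limma, while 2 at each stage had an unadjusted p under 0.05. Med1, a subunit of Mediator that binds nuclear receptors, was higher at E9.5 than at E8.5 by 0.50 in open (SE 0.11, adjusted p = 0.0272) and 0.63 in closed tissue (SE 0.13, adjusted p = 0.0255). It was 1 of 12 in each, against 5.02% of all genes in open and 2.42% in closed tissue. Of 13 other nuclear receptors that pair with RXRs, 6 passed the filter. Among them Thra, a thyroid hormone receptor gene, was lower in closed tissue (-0.77, SE 0.19, adjusted p = 0.031 at E8.5 and -0.66, SE 0.17, adjusted p = 0.0334 at E9.5), and the other 5 did not pass.

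**Figure D4:**
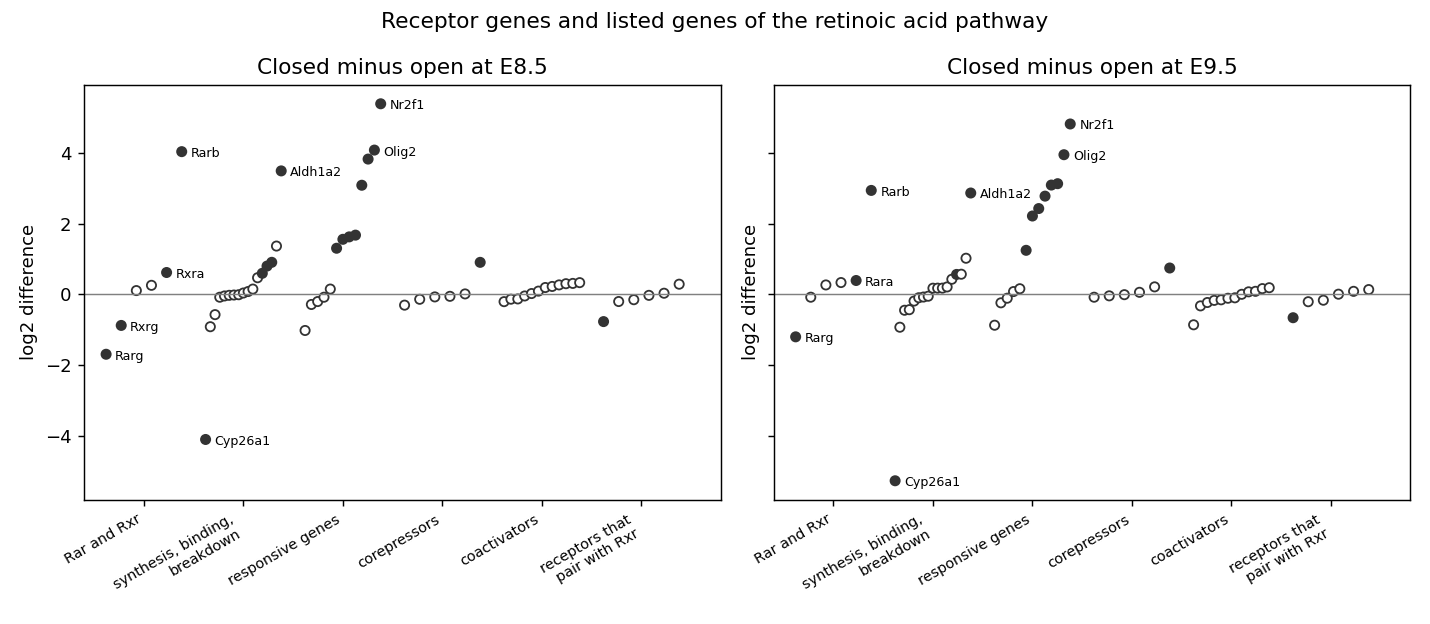
Closed minus open differences (log2) at E8.5 and E9.5 for the 6 receptor genes and the tested genes of 5 retinoic acid lists, each gene a point in order of its value within its list; filled points have an adjusted p under 0.05. Rarb (4.04 and 2.94) lies on the same side as Aldh1a2, Olig2 and Nr2f1, while Rarg and Cyp26a1 lie below 0 at both stages and the coactivators have no filled point.

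Likeness was measured as Pearson's r over the 11 arrays with each of 13337 other genes, as a description, since arrays share their group. For Rarb the nearest were Pax6 (r = 0.989), Aldh1a2 (r = 0.982) and the homeobox gene Irx2 (r = 0.981). For these genes the mean was highest in closed E8.5 tissue, then in closed E9.5, open E8.5 and open E9.5 tissue, as for Rarb. For Rarg they were Atp9a (r = 0.972), the proton channel gene Hvcn1 (r = 0.967) and the integrin gene Itgb5 (r = 0.956). For Rxra they were Armcx4 (r = 0.971), Prkar2b (r = 0.956), a regulatory subunit of protein kinase A, and Zfhx3 (r = 0.956). For Rxrg they were Dab1 (r = 0.970), an adaptor of reelin signalling, the neurofilament gene Nefh (r = 0.932) and Ugdh (r = 0.931), which makes a sugar precursor of hyaluronan. For Rara they were Myh7b (r = 0.955), the planar polarity gene Vangl1 (r = 0.934) and 4933412E12Rik (r = 0.923).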

How the data were processed

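The authors deposited 1 log2 signal per probe set and array (45101 probe sets, 11 arrays, from 2.37 to 14.7). The submitters' processing notes name MAS5 without a role, so background correction, summary and normalization are not given in the sources used here. Values were used as deposited. Probe sets were named through the platform annotation; those with several symbols (932), none (9160) and 64 controls were left out.

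The limma package (3.58.1, R 4.3.3) fitted the 4 group means with an intensity trend to 1 probe set a gene with a mean at or above the 40th percentile (4.30), in 13338 genes. There were 7 residual degrees of freedom. Adjusted p-values are Benjamini-Hochberg over all genes tested, with a threshold of 0.05. The fit was tested on simulated data.

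Members and gene lists were chosen with earlier results of these data known. Genes named beside the receptors were, per list and comparison, the 2 of smallest p in each direction among those past the threshold, of which examples are given, and the 3 of highest correlation with each receptor. Other genes labelled in the plot of lists, and the promoter matches, were chosen after their values were seen. Promoters were read from RefSeq (GRCm38.p6).

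Within a stage, same-numbered arrays of both tissues deviated together from their group means (r of 0.308 to 0.697 in 5 pairs). Arrays of different numbers had r from -0.697 to 0.317 in 10 pairs. The main fit used no pairs, and blocks of replicate number within a stage were an alternative. Across stages r ran from -0.648 to 0.457 for the same number and from -0.756 to 0.756 for different numbers. A block of replicate number over both stages was a further alternative.

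Alternatives were quantile normalization, centring on the median, no filter or one at the 60th percentile, other probe sets, other variance models, array weights, only the groups compared, replicate blocks, RNA quality and each array left out.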

Additional observations from a re-analysis of the deposited data

Results flagged for a closer look

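Rxrg was the receptor gene whose region difference differed between the stages by a test of that change: the interaction was 1.15 (SE 0.18, limma adjusted p = 0.0102), from -0.88 at E8.5 to 0.27 at E9.5. With each array left out in turn it lay between 1.05 and 1.24 and passed each time, with adjusted p up to 0.0493 (without closed E8.5 replicate 2).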

How the results depend on the processing

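Counts of receptor genes past the threshold moved by more than 1.5 times in these cases. For the stages in open tissue the count was 1, and 2 with arrays centred on their median or with the mean of all probe sets (Rara added). With array weights it was 4, as Rara (-0.31), Rxra (0.37) and Rxrb (0.27, limma adjusted p = 0.0265) were added. With each array left out the count was 1 to 2. For the interaction it was 1, and 0 without both open E9.5 arrays of highest 3-prime control signal (Rxrg 1.07, limma adjusted p = 0.109; 1 receptor gene had an unadjusted p under 0.05). The calls for Rarb (regions, and stages in closed tissue) held in every alternative run. So did those for Rarg at E8.5 and over both stages, and for Rxrg at E8.5 and between stages in open tissue. The second Rarg probe set on its own, 1419416_a_at, was not among those runs. Its differences did not pass at E8.5 (-0.54, limma adjusted p = 0.331) or over both stages (-0.31, adjusted p = 0.356). With replicate blocks within a stage, the call of Rxrg over both stages changed (-0.35) and no other did. With replicate number alone as a block, Rara lost its calls at E9.5 (0.39, adjusted p = 0.081) and over both stages (0.32, adjusted p = 0.0507). Values that did not pass and changed sign were those of Rxrb in closed tissue between the stages (-0.006 as deposited; 0.038 with quantile normalization, 0.0011 with array weights, 0.078 with the replicate block, 0.012 with the control signal ratio, 3-prime over 5-prime, as a covariate, -0.079 to 0.063 with arrays left out). Rxrb over both stages gave -0.0068 with array weights, -0.027 with the replicate block and -0.064 to 0.078 with arrays left out. With the covariate and without both those arrays, Rxrb gave 0.090 and 0.24 at E9.5, -0.055 and -0.14 for the stages in open tissue, and 0.067 and 0.13 for the interaction. Rarg gave 0.25 and 0.37 for the stages in open tissue and -0.0078 and -0.094 for the interaction. With arrays left out, Rxrb at E9.5 ran from -0.24 to 0.047 and Rarg for the stages in open tissue from -0.51 to 0.010. The interaction of Rxra was 0.046 with the mean of all probe sets. The causes were not tested.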

Other observations

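Of 31 genes with a direct repeat of 5-base spacing in a listed promoter, 6 were tested. Rarb (4.04 and 2.94) and Cyp26a1 (-4.11 and -5.28) passed between the regions at both stages, in opposite directions. Of all genes, 7.17% passed at E8.5 and 8.54% at E9.5. Cfap45, a gene of motile cilia, differed by 0.44 at E8.5 (SE 0.10, adjusted p = 0.0222) and 0.32 at E9.5 (SE 0.09, adjusted p = 0.0554). The embryonic globin gene Hbb-y differed by 1.69 (SE 0.74) and -0.68 (SE 0.66), and with Blvrb and Syndig1 it did not pass at either stage.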
